A study of Mus musculus with 4 samples.

Results

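The miRNAs described here are the late-numbered ones of the mouse: annotated miRNA names with a number of 1000 or higher in 4 small RNA libraries of whole blood. Numbers were given to miRNAs in order of discovery, so these names stand mostly for miRNAs found late, by deep sequencing. A name was kept if every library that lists it counted its mature reads over the same window of the genome. miR-3107 was left out by name. Of 109 late-numbered names 26 were counted over windows that differed between libraries, and 83 names, each at 1 locus, remained of 373 annotated names in all. A name listed in a single library could not fail this rule, and 27 of the 83 members were such names. The label "mostly rodent-specific" was not examined, since no data of other species were used.

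The animals of both groups were Balb/c, an inbred strain of white laboratory mice, aged 180 days, with feed and water freely available. The control group had 2 libraries. The other group drank water mixed with cadmium, a toxic metal retained by the liver and kidneys, and also had 2 libraries. Neither the dose nor how long the mice drank it is stated in the labels. Whether a group's libraries are separate animals is not stated either, and p-values then reflect the spread between the libraries alone, which may be technical. The question of the comparison is which small RNAs of blood respond to cadmium.

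A miRNA is usually cut in steps from a hairpin in its precursor, first by Drosha in the nucleus and then by Dicer in the cytoplasm, and the mature strand guides an Argonaute protein to messenger RNAs. Pairing with the target rests mainly on the seed, bases 2 to 8 of the mature miRNA. Some miRNAs bypass Drosha. In a mirtron the splicing machinery releases the hairpin as a short intron, and in a tailed mirtron only 1 end of the hairpin is an intron end. Others come from small nucleolar RNAs (snoRNAs) or small Cajal body RNAs (scaRNAs), which otherwise guide chemical modification of ribosomal and spliceosomal RNA.

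The mature sequences that the results turn on are given first, as the deposited lists hold them. The 5 most abundant distinct members and miR-1930, which rose with cadmium, are shown with the seed in capitals. No 2 of these 6 share a seed.
miR-1839: aGGTAGATagaacaggtcttgt
miR-1198: tATGTGTTcctggctggcttg
miR-1843b: cATGGAGGtctctgtctgac
miR-3074: tGTTCCTGctgaactgagcca
miR-5113: gACAGAGGaggagagagatcctg
miR-1930: aCCTCCATagtacctgcagcg

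The next sequences belong to members whose 3′ end lies at the end of an intron, and here the capitals mark the last 2 bases. An intron ends in ag, its splice acceptor, after a stretch rich in the pyrimidines c and t. miR-7015 fell with cadmium, miR-1982 is the only tested member of this kind that stops 1 base short of the intron end, miR-3103 and miR-6975 were listed in cadmium libraries but in no control, and miR-5134 and miR-7046 in controls but in no cadmium library.
miR-7015: tctcactgtcctctgcactAG
miR-1982: tctcaccctatgttctcccaCA
miR-7052: gctctgccccctccttcccAG
miR-6975: tctctcctttctcctcctAG
miR-3103: tctaacctctgatccttcccaCA
miR-5134: acgggtggccctctttctgcAG
miR-7046: tgaaccacccatccccctacAG

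Of the 83 members, 78 had a usable sequence, in 76 distinct forms with 76 distinct seeds. The exceptions are miR-3074 and miR-3084, each encoded at 2 loci whose counts are the same reads. Only 2 members shared a seed with another sequence of the lists. These were miR-1843b, whose ATGGAGG seed is also that of miR-1843a, and miR-7026, whose TGTGCTT seed is also that of miR-218. For 70 members the listed sequence was found in a RefSeq (GRCm38.p6) hairpin, and for 70 a mature form could be matched to the counted window. In 58 the counted window began at the same base as the RefSeq form. The others, such as miR-1839 and miR-3074, began at most 2 bases away.

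Each deposited list holds only loci with at least 5 mature reads, so an unlisted member is not a measured 0. Annotated loci summed to between 14383852 reads (cadmium 1) and 35244119 reads (control 1), with 24622926 in control 2 and 15565712 in cadmium 2. A sequence with several loci is counted at each of them in these sums. Markers of blood were high: miR-486, a red cell miRNA, averaged 210200 CPM (counts per 1000000 mature reads, scaled by edgeR's TMM factors), and the lymphocyte miRNAs miR-150 and miR-181 were listed in all 4 libraries. miR-451 and miR-223 were not analysed here. With each mature sequence taken once, the 3 red cell markers summed to 392900 to 411200 CPM in controls and 300000 to 314700 CPM with cadmium, and 2 of the 3 (miR-486 and miR-144) fell, against 6.52% of all tested loci. The 3 lymphocyte sequences summed to 3299 to 4401 CPM in controls and 2220 to 2222 CPM with cadmium, and 1 of the 3 (miR-181a) fell. The liver miRNA miR-122 had 102 and 114 reads with cadmium but 16 in control 1 and no entry in control 2. The part of blood cell makeup in the results below was not tested, and in bulk blood fewer cells of a type cannot be told apart from less RNA per cell.

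Most members were scarce. Control 1, the deepest library, listed 71 members, control 2 listed 49, cadmium 1 listed 47 and cadmium 2 listed 46. The median count of a listed member was 19 reads in control 1 and 27 in each of the other libraries. At 10 or more reads the numbers were 61, 39, 38 and 42 in the same order. At a level of 1 CPM or more without TMM scaling the order turned, with 29 and 26 members in the controls against 36 and 35 in the cadmium libraries. The smallest count that a list holds was worth 0.159 CPM in control 1 and 0.309 CPM in cadmium 1. The number of members listed in control and in cadmium blood therefore depends on which minimum is set.

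**Figure D1:**
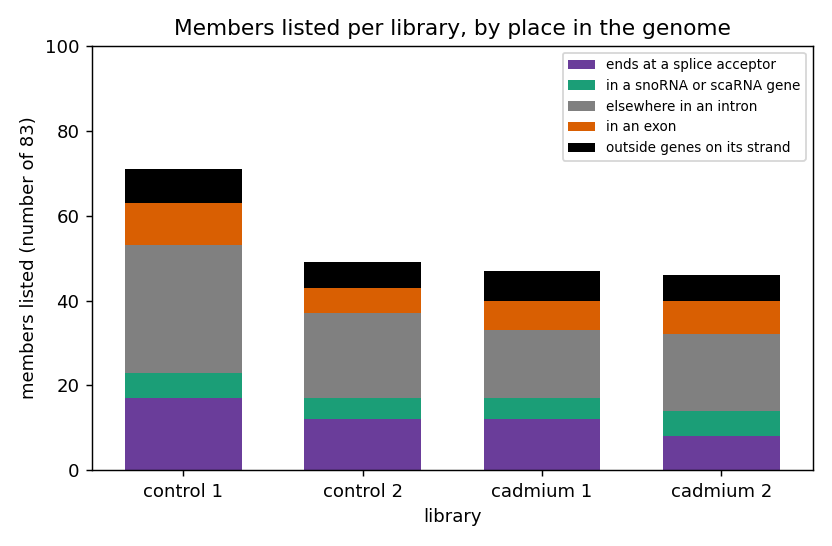
Number of the 83 members listed in each library (bar height), stacked by where the mature sequence lies in the genome. Control 1 lists 71 members and the other libraries 46 to 49, and all 6 members in snoRNA or scaRNA genes are listed in control 1 and in cadmium 2.

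All 4 libraries listed 33 members (39.8%), against 80.7% of the 275 loci with numbers below 1000. With the 26 names that failed the window rule put back, 54 of 112 late-numbered loci (48.2%) were listed in all 4. A further 8 members were listed in 3 libraries, 15 in 2 and 27 in 1. Of the 27, 17 were listed only in control 1, 5 only in control 2, 3 only in cadmium 1 and 2 only in cadmium 2.

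The members listed in both libraries of a group and in neither of the other were few and low. The share of all annotated loci listed in this way was not counted. The controls are the deeper libraries and list lower levels. The listing minimum was worth 0.159 and 0.223 CPM in the controls and 0.309 and 0.294 CPM in the cadmium libraries. The 8 listed in both controls alone were miR-1956, miR-1969, miR-5134, miR-5710, miR-6899, miR-7046, miR-7119 and miR-7237. Of these miR-7237, from an intron of the nuclear matrix gene Banp (chr8:121978065-121978085), was the highest, with 33 and 16 reads. miR-5134, from an intron of the cyclin F gene Ccnf (chr17:24234535-24234556), had 14 and 12 reads, and miR-7119, from the replication checkpoint gene Clspn, had 14 and 10. The remaining 5 had between 5 and 14 reads, close to the smallest count a list holds. A count just under that minimum would be worth up to 0.247 CPM with cadmium. In their lower control library miR-1969 and miR-6899 were at 0.223 CPM, below that level. Of the 8 members, 5 end at a splice acceptor, against 22 of all 83 members (26.5%).

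Both members listed in the 2 cadmium libraries alone end at a splice acceptor. miR-3103, from an 89-base intron of BC017158 (chr7:128288371-128288393), had 24 reads in cadmium 1 and 25 in cadmium 2, which is 1.48 and 1.47 CPM. miR-6975, from an intron of Ddx39b (chr17:35244116-35244135), a helicase of splicing and messenger RNA export, had 19 and 25 reads, 1.17 and 1.47 CPM. A count just under the listing minimum in the controls would be at most 0.178 CPM. That is a bound only if a low count kept these miRNAs off the lists, which is not known, and some members unlisted elsewhere had levels well above the minimum. The unlisted controls hold no value for either miRNA, so no fold change or test is given.

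Many missing entries belonged to members whose level where listed would have reached the listing minimum. Of 119 missing entries 97 would have held at least 5 reads, and 13 at least 20, at the member's mean CPM where it was listed. That mean leans high, since it leaves out libraries in which the member missed the list. For the 27 members listed in 1 library it is a single count. miR-1964, from an intron of Zfp84, had 102 reads in control 2 and was unlisted elsewhere, while the same level would have given 143 reads in control 1 and 73.6 and 77.3 in the cadmium libraries. miR-3068, from an annotated snoRNA gene, had 246, 78 and 84 reads in control 1, cadmium 1 and cadmium 2 and was unlisted in control 2, where its mean level corresponds to 132 reads. miR-3061, in an exon of the phosphatase gene Ppp2ca, had 129, 32 and 38 reads in those libraries and was unlisted in control 2 as well. miR-8105 had 35, 16 and 10 reads and was unlisted in control 2, and miR-6948 had 42 reads in control 1, 5 in cadmium 1 and no listing elsewhere. For miR-7227, unlisted in control 2, that library's list holds a predicted locus of 12 reads on the same strand at chr4:133717049-133717071, over the same bases.

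Members held a small share of the miRNA reads. They made up 0.0794% of annotated reads in control 1, 0.0922% in control 2, 0.108% in cadmium 1 and 0.093% in cadmium 2. The totals count a sequence with several loci at each locus. The group means were 0.0858% ± 0.00911 in control and 0.1% ± 0.0103 with cadmium (SD, n = 2 libraries each). The lower cadmium library and the higher control library differ by less than the spread within either group. The 95% Wilson intervals of the single libraries, which cover counting error only, were 0.078% to 0.0803%, 0.091% to 0.0934%, 0.106% to 0.109% and 0.0915% to 0.0945%. A two-sided exact permutation test of 2 libraries against 2 cannot give a p below 0.333, so no call was made. With each mature sequence counted once, the group means were 0.135% in control and 0.158% with cadmium. When the most abundant sequence of the lists was left out of the total, the group means were 0.157% and 0.159%.

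A single miRNA, miR-1839, gave 48% of the members' reads in control 1, 59.2% in control 2, 47.7% in cadmium 1 and 50.8% in cadmium 2. The top 2 members gave 69.8% to 79.5% and the top 5 gave 83.9% to 88.6%. The tested members had a median of 2.23 CPM, with 26 of 33 under 10 CPM. The median of the other tested loci was 10.1 CPM, with 49.8% under 10. The low counts went with more scatter: the median absolute log2 ratio between libraries of a group was 0.44 for members and 0.27 for other loci in control, and 0.24 and 0.15 with cadmium.

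**Figure D2:**
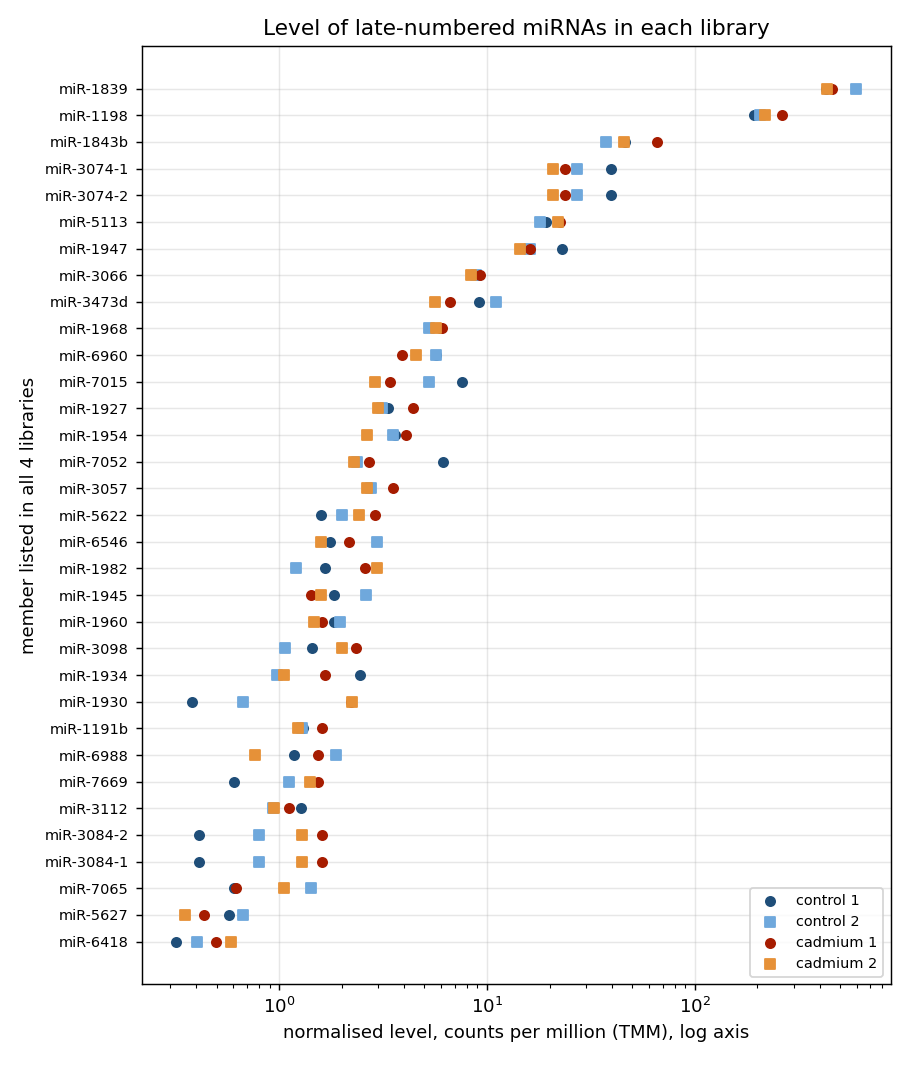
TMM-normalised level (CPM, log axis) of the 33 members listed in all 4 libraries, with 1 point per library. miR-1839 and miR-1198 stand above 100 CPM in all libraries, and 26 of the 33 members average under 10.

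miR-1839 was the most abundant member and rank 56 of 276 tested loci. It lies at chr7:81529920-81529941 in an annotated scaRNA gene, inside the long non-coding RNA 2900076A07Rik. It had 427.7 and 599.6 CPM in the controls and 456.8 and 432.4 CPM with cadmium. The groups overlapped, with control 2 alone standing high.

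miR-1198, at rank 63, comes from an intron of Gripap1 (chrX:7807142-7807162), which encodes an endosomal trafficking protein. Its levels were 193.5 and 205.3 CPM in control and 261.5 and 218.1 CPM with cadmium. The groups did not overlap, but the difference did not pass the test, with a log2 fold change of 0.27 ± 0.18 and an edgeR adjusted p of 0.352.

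miR-1843b, at rank 90, lies in Scarna3a, a scaRNA gene in an intron of the ubiquitin ligase gene Cop1 (chr1:159340361-159340380). It had 46.21 and 37.49 CPM in control and 66.02 and 45.48 CPM with cadmium, and the groups overlapped. miR-1843a, with the same seed, had a log2 fold change of 0.30 ± 0.28 against 0.41 ± 0.26 for miR-1843b, and neither passed the test.

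Next in level came miR-3074 (27.8 CPM on average at each of its loci), miR-5113 (20.5 CPM), in an exon of the Argonaute partner gene Tnrc6b, and miR-1947 (17.4 CPM), in an intron of the metallopeptidase gene Lmln. From miR-3066 (8.83 CPM, Nol10) the order ran through miR-3473d (8.13 CPM, Ddx19b), miR-1968 (5.74 CPM, Grtp1), miR-6960 (4.95 CPM, Troap) and miR-7015 (4.79 CPM, Smap2) to miR-1927 and miR-1954 (3.46 CPM each) and miR-7052 (3.38 CPM). In the order of level miR-1839, miR-1198 and miR-1843b did not overlap one another in any library, and miR-1947 did not overlap miR-3066. Every other pair of neighbours down to miR-7052 overlapped. The scarcest tested member, miR-6418 at 0.451 CPM, was also the scarcest of all 276 tested loci.

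Among the tested members 1 rose and 1 fell in cadmium blood. miR-1930 was 4.35-fold higher and miR-7015 2.06-fold lower. These are 2 of 33 tested members, against a background of 14.5% of all 276 tested loci (40 loci: 22 higher, 7.97%, and 18 lower, 6.52%). The members' share is thus below the background, in a set whose counts are lower. DESeq2 called the same 2 members and no other (13.7% of all loci). Total-count scaling called 57 loci higher and 8 lower over the whole table, upper-quartile scaling 48 and 9, and DESeq2 size factors 21 and 27, so the split of all calls depends on scaling. Members called numbered 2 with DESeq2 size factors (17.4% of all loci), 5 with total counts (23.6%), 4 with upper-quartile scaling (20.7%), 2 with the replicate number as a block (6.88%) and 1 with 1 locus per mature sequence (15.3%). They numbered 7 without control 1 (38.2%), 12 without control 2 (44.5%), 0 without cadmium 1 (2.89%) and 0 without cadmium 2 (3.25%), with 4 members at an unadjusted p under 0.05 in each of the last 2 edgeR fits. Each fit with a library left out has 1 library in a group, assumed to vary like the other group. With unlisted loci filled in as 4 reads, just under the smallest count in any list, 5 members were called (15.5%), and as 0 reads 4 (13.5%). In both fits 3 of these, miR-3103, miR-6975 and miR-7237, were listed in a single group and had a constant in the other, so these counts support nothing about the members. None of the 7 members with a mean CPM of at least 10 was called by edgeR (20.3%) or had an unadjusted p under 0.05.

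miR-1930 was low in both controls and higher in both cadmium libraries. It had 12 and 15 reads in the controls and 36 and 38 in the shallower cadmium libraries, which is 0.382 and 0.669 CPM against 2.22 and 2.24 CPM. The raw counts themselves did not overlap. The log2 fold change was 2.12 ± 0.36, with an edgeR adjusted p of 0.00874. The locus (chr10:77641236-77641256, + strand) lies in an exon of a retained-intron transcript of Ube2g2, which encodes a ubiquitin-conjugating enzyme that acts on misfolded proteins of the endoplasmic reticulum. Without cadmium 1 the adjusted p was 0.123 and without cadmium 2 it was 0.0601, at log2 fold changes of 2.11 in both.

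miR-7015 was lower in both cadmium libraries than in either control. It had 239 and 118 reads in the controls and 55 and 49 with cadmium, or 7.61 and 5.26 CPM against 3.4 and 2.88 CPM. The log2 fold change was -1.04 ± 0.27 (adjusted p = 0.0378). The locus (chr4:120973259-120973279, - strand) is the 3′ end of an intron of Smap2, a regulator of Arf GTPases in vesicle transport. The call did not hold with total counts (log2 fold change -0.74, adjusted p = 0.0796), with upper-quartile scaling (-0.78, 0.105), without cadmium 1 (-1.16, 0.211), without cadmium 2 (-0.92, 0.257), with unlisted loci as 0 reads (adjusted p = 0.0699) or with 1 locus per mature sequence (0.0518).

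At an unadjusted p under 0.05 there were 7 of 33 members, against 28.6% of all tested loci. In 10 members both cadmium libraries lay above both controls and in 9 both lay below, while 14 overlapped. Over all tested loci 69.9% did not overlap (39.5% above and 30.4% below). That share counts a repeated sequence at each of its loci. The miR-297, miR-466, miR-467 and miR-669 names alone gave 19 loci above and 29 below, from 11 tested sequences. The members' median log2 fold change was -0.08, that of all tested loci 0.08. Total counts moved the median of all loci to 0.38 and upper-quartile scaling to 0.32, and the members' to 0.22 and 0.15, so the sign of the members' median depends on scaling. The members' median lay below that of all loci under these scalings, but above it without control 1 (0.13 against 0.09) and without cadmium 2 (0.05 against 0.04).

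**Figure D3:**
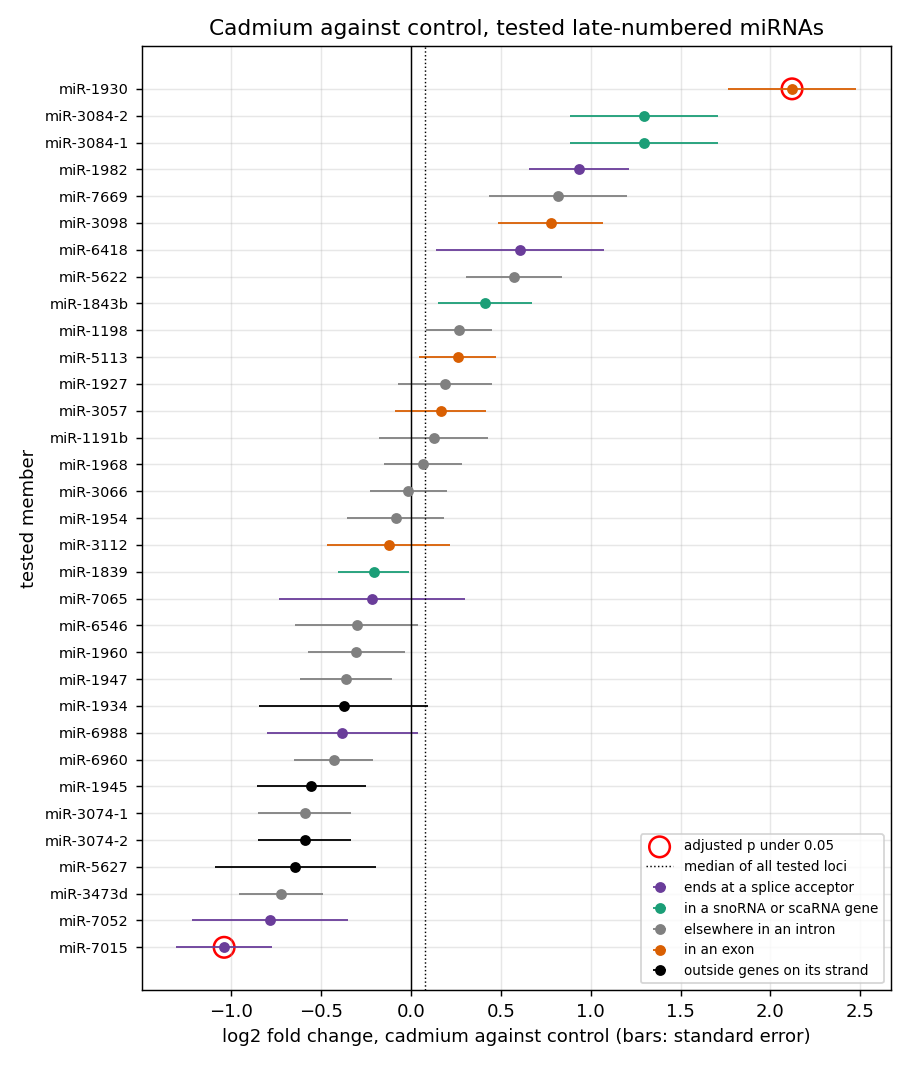
Log2 fold change of cadmium against control for the 33 tested members (points, bars are standard errors), coloured by place in the genome. Only miR-1930 (2.12) and miR-7015 (-1.04) are ringed as past the threshold, and the dotted line marks the median of all tested loci at 0.08.

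The members were then read by where they lie, on the GENCODE annotation of GRCm38, the build named mm10 in the processing notes. Of the 83, 61 lay in introns, 13 in exons and 9 outside annotated genes on their strand. In 22 members (26.5%) the mature sequence ended within 2 bases of an intron end, and in 17 of these exactly on its last base. Of 275 loci with numbers below 1000, 2 (0.727%) did so. Among all 112 late-numbered loci, with the names of differing windows put back, 27 (24.1%) did. The share was thus similar with and without the window rule.

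**Figure D4:**
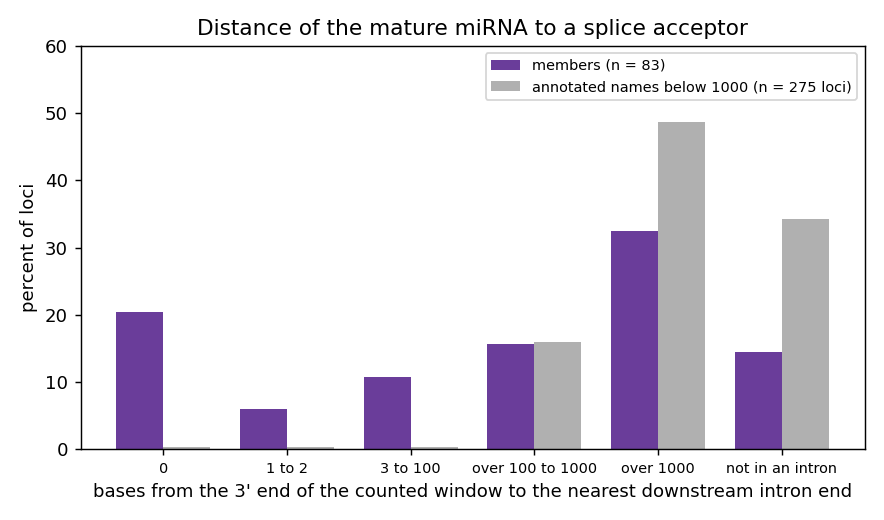
Percent of loci by distance from the 3′ end of the mature window to the nearest downstream intron end, for the 83 members and for 275 annotated loci with numbers below 1000. Members reach 20.5% at distance 0 and the other loci 0.364%, while the class from over 100 to 1000 bases is nearly level (15.7% and 16%).

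The sequences carry the letters of an acceptor, which follows from picking windows that end at an annotated intron end. The letters describe the group and are no separate evidence. All 16 members that end on the last base of an intron and have a usable sequence end in ag, and the 5 that stop 1 base short all end in a. Over all members with a sequence 29.5% ended in ag, and of loci below 1000 8.18%. The splice acceptor members were also rich in c and t, as introns are before their end. Their median was 71.4% (52.4% to 90%), against 41.9% in members elsewhere in introns. The richest was miR-6975. The 22 introns ran from 74 bases (Oaz1, miR-1982) to 36269 bases (Klf7, miR-6899). Of these 10 were under 100 bases, the length range of classical mirtrons. Where annotated introns share an end the shortest was taken, so the lengths are minima. A further 9 members ended 4 to 62 bases before an intron end. Of these 6 were on the 5′ arm of their hairpin, at 29 to 38 bases, among them miR-6960 of Troap.

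The splice acceptor members were fewest in cadmium 2: control 1 listed 17 of the 22, control 2 and cadmium 1 listed 12 each and cadmium 2 listed 8. Only 6 were in all 4 libraries, and 7 were in a single one. The 6 tested had a median log2 fold change of -0.30, which was -0.0048 with total counts. Of these 1, miR-7015, passed the test, against 14.5% of all tested loci. The others ranged from miR-7052 to miR-1982. miR-7052, in the deubiquitinase gene Josd2, had 193, 53, 44 and 39 reads in the same library order, and control 1 alone stood high. Its log2 fold change was -0.78 ± 0.44, 0.08 without control 1 and -1.29 without control 2. miR-1982, in Oaz1, the antizyme that turns down polyamine synthesis, had 52 and 27 reads in the controls and 42 and 50 with cadmium. On the CPM scale its groups did not overlap (1.66 and 1.2 against 2.6 and 2.94). Its log2 fold change of 0.94 ± 0.28 did not pass the test (adjusted p = 0.0674). It passed with total counts (1.23, adjusted p = 0.0182) and with upper-quartile scaling (1.20, 0.0147), and was 1.20 without control 1. miR-1982 lies outside the rule for named members and was chosen after its values were seen, as were miR-3084 and miR-3098 below.

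In snoRNA or scaRNA genes lay 6 members (7.23%), against 1 of 275 loci (0.364%) below 1000, miR-664 in Snora36b. They are miR-1839, miR-1843b, miR-3068, miR-3069 in Scarna13 and both loci of miR-3084, 1 of them in Snora19 in an intron of the translation factor gene Eif3a. The 4 tested loci, 3 of them distinct in sequence, had a median log2 fold change of 0.85, or 0.41 with each sequence taken once. None passed the edgeR test, against 14.5% of all tested loci. The 2 loci of miR-3084, which hold the same reads, had an unadjusted edgeR p under 0.05, against 28.6% of all tested loci. miR-3084 had 13 and 18 reads in the controls and 26 and 22 with cadmium, and its log2 fold change was 1.29 ± 0.41 (adjusted p = 0.071). It passed with total counts (1.59, adjusted p = 0.0317) and with upper-quartile scaling (1.52, 0.00645). Its log2 fold change was 1.79 without control 2 and 0.85 without control 1. For miR-1839 the log2 fold change was -0.21 ± 0.20 (adjusted p = 0.447). It was 0.09 with total counts and 0.01 with upper-quartile scaling. Without control 2 it was 0.06 and without control 1 -0.43, so its sign depends on control 2 and on the scaling.

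Of the 10 members elsewhere in exons 5 were tested, with a median of 0.26. miR-1930 was the one that passed, against 14.5% of all tested loci. miR-3098, in an exon of the mitochondrial ribosome gene Mrpl51, had 45 and 24 reads in the controls and 38 and 34 with cadmium (log2 fold change 0.78 ± 0.29, adjusted p = 0.115, and 0.0333 with total counts). miR-5113 had 19.25 and 18.01 CPM against 22.56 and 22.07 CPM. Its groups did not overlap, yet the log2 fold change of 0.26 ± 0.22 did not pass.

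Elsewhere in introns lay 36 members, of which 14 were tested, with a median of -0.05 and a range from -0.72 to 0.82. None passed the edgeR test (14.5% of all tested loci did) and 1 had an unadjusted p under 0.05 (28.6% did). That was miR-3473d, in an intron of the messenger RNA export helicase gene Ddx19b, with 289 and 248 reads in the controls and 107 and 96 with cadmium. Its levels were 9.2 and 11.06 CPM against 6.61 and 5.65 CPM, and its log2 fold change was -0.72 ± 0.23 (adjusted p = 0.073). miR-3066 stood level, at 8.91 and 8.83 CPM in control and 9.21 and 8.36 CPM with cadmium. miR-1968, miR-1927 and miR-1954 had log2 fold changes of 0.07 ± 0.22, 0.19 ± 0.26 and -0.08 ± 0.27. miR-6960 and miR-1947 had -0.43 ± 0.22 and -0.36 ± 0.26, without overlap between the groups and without passing the test. The 9 members outside annotated genes gave 4 tested loci, with a median of -0.57 and a range from -0.64 to -0.37. None passed the test, against 14.5% of all tested loci.

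miR-3074 is transcribed from the strand opposite to miR-24, at both of its loci (chr13:63301251-63301271 and chr8:84208875-84208895, both on the - strand). All 21 bases of the member are the reverse complement of miR-24, whose sequence is shown here with its seed in capitals for that reason.
miR-24: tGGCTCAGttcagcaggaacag

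miR-3074 had 1246 and 610 reads in the controls and 382 and 353 with cadmium, or 39.65 and 27.19 CPM against 23.61 and 20.77 CPM. Every cadmium value lay below every control value, but the log2 fold change of -0.59 ± 0.26 did not pass the test (adjusted p = 0.178). It was -0.29 without control 1 and -0.84 without control 2, so its size depends on which control is used. miR-24 had 1976 and 1590 reads in the controls and 2291 and 2468 with cadmium, and rose with a log2 fold change of 1.10 ± 0.20 (adjusted p = 0.00979). For each 100 reads of miR-24 there were 63.1 and 38.4 reads of miR-3074 in the controls and 16.7 and 14.3 with cadmium. This ratio is taken within a library and does not depend on scaling. The exact two-sided permutation p of its log2 value was 0.333, the smallest that 2 libraries against 2 can give.

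Lists of related miRNAs were set beside the members. A list of 9 names for miRNAs described as made without Drosha had 3 listed, all tested. Of these 1 rose, against 7.97% of all tested loci. This was miR-664, with 155 and 110 reads in the controls and 184 and 223 with cadmium and a log2 fold change of 1.32 ± 0.22 (adjusted p = 0.00874). miR-320, from a short hairpin, had 0.45 ± 0.15 (adjusted p = 0.0804), and miR-1839 is the third. The miR-297, miR-466, miR-467 and miR-669 names, mostly in a rodent cluster in an intron of Sfmbt2, gave 52 tested loci with 11 distinct sequences. Of these loci 1 fell, against 6.52% of all tested loci. Their median log2 fold change was -0.26, and 0.04 with total counts. Their most abundant tested loci were those of miR-669a (7.64 CPM each, 0.32 ± 0.22) and miR-467a (5.14 CPM each, -0.38 ± 0.24), which did not pass the test.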

How the data were processed

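Small RNA of whole blood was sequenced, 2 libraries per group. Total RNA was isolated with a miRNeasy kit, per the labels' protocols. The deposited lists give each locus a raw count of mature reads in whole numbers. Bowtie 0.12.2, DESeq and the mm10 build are named in the submitters' processing notes. Their roles, the locus caller and the miRNA release are not given in these sources.

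Where a name and its star form were listed over the same window, only the first row was kept and the counts were not added. An unnamed total in cadmium 1 was left out. Sequences of control 2 were left out, because only 162 of its 693 rows have a sequence of the listed length. The members and lists were chosen with earlier results of these data known.

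edgeR 4.0.16 in R 4.3.3 (quasi-likelihood, TMM, filterByExpr, group only, two-sided, Benjamini-Hochberg, threshold 0.05, 2 residual degrees of freedom) was fitted to the 276 annotated loci that every library lists with counts on 1 hairpin arm. A standard error is the log2 fold change over the square root of F. CPM values are scaled by TMM (factors 0.892, 0.912, 1.13 and 1.09). Pearson's r of log2 CPM across loci was 0.992 for the controls and 0.997 for the cadmium libraries. Their counts differed far beyond sampling noise (chi-square over its degrees of freedom 1019 and 60.6), so no library was counted as a copy. The cadmium against control test was run on 20 simulated data sets of 276 loci. It called 20.3% of loci changed 1.5-fold, 62% at 2-fold, 96% at 4-fold and 0.606% of unchanged ones. The changed loci were drawn at random from all tested loci, and the noise followed the fit's own dispersion trend. Tested members are scarcer (median 2.23 CPM against 7.64 CPM over all tested loci), so these shares need not hold for them.

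Named members are those past the threshold, the 15 of highest mean CPM, those listed in both libraries of 1 group alone, and the 5 highest among partly listed ones. Alternatives were other scalings, filters, DESeq2 1.42.0, the replicate block, each library left out, unlisted loci as 0 or 4 reads, and 1 locus per sequence. Markers of muscle, platelet, myeloid and neural RNA gave no locus past the threshold in edgeR or at an unadjusted p under 0.05. The myeloid list held miR-142 alone and the neural list miR-9 alone, so neither cell type was well covered. miR-122 of liver was not tested. Other software was matplotlib 3.10.9, SciPy 1.17.1, pandas 2.3.3 and Python 3.11.15. Coordinates are 1-based, from the deposited lists (mm10).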

Additional observations from a re-analysis of the deposited data

Results flagged for a closer look

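miR-3103 and miR-6975 stood out because they were listed in both cadmium libraries and in neither control, outside the loci that the test covers. miR-3103 had 24 reads in cadmium 1 and 25 in cadmium 2. miR-6975 had 19 reads in cadmium 1 and 25 in cadmium 2. The controls are the deeper libraries, and no list holds a count below 5. For miR-1258, miR-1958 and miR-5624 the same list holds a predicted locus on the opposite strand with the same count.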

How the results depend on the processing

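Over all tested loci the number of calls was 40, and 65 with total counts, 26 with a mean CPM of at least 10, 19 with the replicate block and 8 to 122 with a library left out (105 without control 1, 122 without control 2, 8 without cadmium 1, 9 without cadmium 2). Among members it was 2, and 5 with total counts, 4 with upper-quartile scaling, 0 with a mean CPM of at least 10 (7 members tested, 0 at an unadjusted p under 0.05), 4 with unlisted loci as 0 reads and 5 with them as 4 reads (in each, 3 members listed in a single group alone, whose calls the filled-in constant makes), 1 with 1 locus per sequence and 0 to 12 with a library left out. Without either cadmium library no member passed the edgeR test and 4 had an unadjusted p under 0.05; without control 1 there were 7 calls and without control 2 12. Each left a group with 1 library, assumed to vary like the other group. With no filter, DESeq2 size factors or the DESeq2 test the members' calls stayed at 2, and the same 2.

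The replicate numbers mark no shared animal or day in the labels, and the deviations of same-numbered libraries correlated at 0.00472. With the replicate block 2 members were called, the same 2.

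Of 265 member values under alternatives 223 kept direction and call, 20 gained the call, 8 lost it and 14 changed sign. These values are those of the named tested members and of miR-1982, miR-3084 and miR-3098, not of all 33 tested members. As miR-1982, miR-3084 and miR-3098 were chosen after their values were seen, the tally gives no rate for the members. The cause of the changes was not tested. With total counts miR-1839 had 0.0881, miR-1954 0.217 and miR-3066 0.285; with upper-quartile scaling 0.0114, 0.154 and 0.225. With DESeq2 size factors miR-1968 had -0.0248, and -0.0224 in the DESeq2 test. With a library left out miR-1839 ran from -0.431 (without control 1) to 0.0562 (without control 2), miR-1968 from -0.0171 (without control 2) to 0.161, miR-7052 from -1.29 to 0.0834 (without control 1), miR-1927 from -0.108 (without cadmium 1) to 0.44, miR-1954 from -0.426 to 0.196 (without cadmium 2) and miR-3066 from -0.0861 to 0.0545 (without cadmium 2).

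The members' mean share was 0.135% in control and 0.158% with cadmium with each sequence counted once, 0.157% and 0.159% without the most abundant sequence in the total, and 0.0394% and 0.051% without miR-1839. At 1 CPM the controls listed 29 and 26 members. Of the members listed, 36 of 71, 20 of 49, 14 of 47 and 15 of 46 (control 1, control 2, cadmium 1, cadmium 2) had under 20 reads, where counting error is large.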
